A study of Mus musculus with 12 samples.

Results

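Bnip3, Bnip3l, Fundc1, Fundc2 and Fkbp8 encode receptors, or close relatives of receptors, that sit in the outer mitochondrial membrane and mark mitochondria for removal by autophagy, and Pink1 encodes a kinase that starts the other main route of this removal. These 6 genes were taken by name from 21771 genes in a table of protein-coding transcripts. Bnip3 was chosen from its difference between PAMK-treated and control cells in these same libraries, so its difference is described here without a test. The other 5 genes were chosen by function, but with earlier results of these data known, so their tests are not independent of that choice. The cells were MTEC1, a wild-type mouse line labelled as medullary thymic epithelium. Cells given 50 µg/ml PAMK for 12 h were set against untreated control cells, with 3 total RNA libraries and 3 small RNA libraries for each group. PAMK is the usual abbreviation for the polysaccharide of Atractylodes macrocephala Koidz, a plant used in traditional medicine. The study's design gives 6 h of culture for the controls, so treatment and time in culture cannot be told apart. The labels do not state whether replicate libraries were separate cultures, and p-values here measure only library-to-library spread, which may be technical.

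Mitophagy is the selective removal of mitochondria by autophagy. BNIP3, its relative NIX (the product of Bnip3l), FUNDC1 and FKBP8 each carry a short motif that binds LC3 or GABARAP proteins on the growing autophagosome, which tethers the mitochondrion to it. PINK1 works differently: it builds up on damaged mitochondria, phosphorylates ubiquitin and so starts the tagging of outer-membrane proteins with ubiquitin, and soluble adaptors then link the ubiquitin to LC3. BNIP3 and NIX are known to be induced by the hypoxia-inducible factors (HIF), which bind the core motifs ACGTG and GCGTG. In thymic epithelium, autophagy is known to run at a high basal level and to deliver the cells' own proteins to MHC class II molecules.

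The promoter windows of Bnip3 and Fkbp8, the most abundant of the 6 genes, are shown because the HIF core motifs in them differ in number. Each window runs 5′ to 3′ on the strand of its gene, from 250 bases before the transcription start to 50 bases from it, and is credited to RefSeq on build GRCm38.p6. Capitals mark each match to ACGTG or GCGTG, read on both strands. Bnip3 lies on the minus strand and its window is chr7:138909457-138909756; Fkbp8 lies on the plus strand and its window is chr8:70527493-70527792.
Bnip3: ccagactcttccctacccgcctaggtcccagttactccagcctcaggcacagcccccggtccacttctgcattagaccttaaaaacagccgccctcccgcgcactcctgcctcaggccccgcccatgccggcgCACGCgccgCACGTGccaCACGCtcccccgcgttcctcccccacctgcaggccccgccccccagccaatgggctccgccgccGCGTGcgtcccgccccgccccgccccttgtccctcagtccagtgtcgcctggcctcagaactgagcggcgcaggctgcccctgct
Fkbp8: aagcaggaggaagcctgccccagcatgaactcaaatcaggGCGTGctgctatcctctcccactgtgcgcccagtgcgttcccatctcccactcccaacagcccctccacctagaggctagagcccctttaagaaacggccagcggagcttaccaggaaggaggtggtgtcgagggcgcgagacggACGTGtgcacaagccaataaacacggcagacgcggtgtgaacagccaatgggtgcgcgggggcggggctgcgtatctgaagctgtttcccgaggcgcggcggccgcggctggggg

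The Bnip3 window, with 71.7% G and C, held 1 palindromic site that reads as ACGTG on both strands, beginning at -108 and -107 from the start, and 3 matches to GCGTG. Those 3 began at -117 and -99 on the opposite strand and at -35 on the gene's strand. The Fkbp8 window held 1 match to each motif, ACGTG beginning at -65 and GCGTG at -210. Of the other genes with a window in the RefSeq table, Fundc2 had 1 match to ACGTG, Pink1 had 1 match to GCGTG and Fundc1 had none. Among 32851 mouse windows of this length, 19.6% held ACGTG and 32.4% held GCGTG. Among the 10028 windows of genes tested here the shares were 26.6% and 52.0%, so a match is common and is a description of these letters, not of a bound site.

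RNA levels are given as FPKM, fragments scaled by transcript length and by the library's mapped total, which corrects for transcript length and allows levels of different genes to be compared. The deposited headings do not name this unit; it was inferred from the values and from the tool named in the submitters' processing notes, and the read depth behind each value is unknown. A gene's level is the sum of its coding transcripts. Differences are log2 fold changes of PAMK over control on log2(FPKM + 1), which understates changes of low genes, with standard errors (SE) from limma, and p-values were adjusted by Benjamini-Hochberg over all 9781 genes with a mean of at least 0.5 FPKM. All 6 genes passed that filter. In bulk RNA, fewer cells of a type and less RNA per cell cannot be told apart.

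Across all genes, few were called, and libraries differed about as much within the groups as between them. With 3 libraries a group, few calls do not show that the groups were alike. At an adjusted limma p of at most 0.05, 7 of 9781 genes were called (0.0716%), and 979 (10.0%) had an unadjusted p under 0.05. Correlations between libraries over genes were 0.886 to 0.894 within PAMK, 0.881 to 0.887 within control and 0.880 to 0.891 between the groups. The median level of the tested genes was higher in every PAMK library, at 4.35 to 4.43 FPKM, than in every control library, at 4.03 to 4.09 FPKM. The label of the cells was set against markers: of 10 for thymic epithelium, Aire, Epcam, Krt14 and Krt5 were given as 0 FPKM throughout the 6 libraries, and the 10 summed to 1.18 to 2.55 FPKM in PAMK and 2.13 to 2.37 FPKM in control libraries. Ly75, the single one of them that was tested, had a log2 fold change of -0.18 (limma adjusted p 0.805). The 8 fibroblast markers summed to 587 to 771 FPKM in PAMK and 502 to 644 FPKM in control libraries. Most of that sum was S100a4 (means of 369 FPKM in PAMK and 311 in control) and Vim (176 and 112). Pdgfrb (means of 0.312 FPKM in PAMK and 0.279 in control) and Thy1 (0.0186 and 0.0254) were near 0, so the markers were not uniformly high. Of the 6 fibroblast markers that were tested, 4 had log2 fold changes above 0, among them Col1a1 (0.59, limma adjusted p 0.315). The other 2 lay below, among them Col1a2 (-1.94, limma adjusted p 0.815). Col1a2 was listed at 0 in PAMK libraries 1 and 3 and had 91.2 FPKM in PAMK library 2, against 0.0143, 81.0 and 61.7 FPKM in control libraries. A listed 0 therefore does not by itself show that a gene is absent, and why Col1a2 varied in this way was not tested. The 6 haematopoietic markers summed to 1.40 to 1.66 FPKM in PAMK and 0.488 to 0.954 FPKM in control libraries, with Cd3e and Itgam at 0. Nearly all of that sum was Cd68 (means of 1.48 FPKM in PAMK and 0.714 in control). Its log2 fold change was 0.54 (limma adjusted p 0.367). The 4 endothelial markers summed to at most 0.0694 FPKM in PAMK and 0.0167 FPKM in control libraries. The part of these markers in the differences below was not tested.

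Bnip3 encodes a protein of the BH3-only type that spans the outer mitochondrial membrane and acts in mitophagy during low oxygen. It lies at chr7:138890836-138909506 on the minus strand. Bnip3 had 35.0, 32.3 and 30.0 FPKM in PAMK libraries 1 to 3, against 56.3, 53.3 and 56.2 FPKM in control libraries 1 to 3. Every PAMK library lay below every control library, and the gap between the groups was wider than the range within either. The means were 32.4 ± 2.51 FPKM in PAMK and 55.3 ± 1.74 FPKM in control (SD, n = 3 each), a ratio of 0.586. That is a log2 fold change of -0.75 ± 0.0692 (SE), the value for which the gene was chosen. Groups that do not overlap, with PAMK lower, were found for 5.40% of the tested genes, and with PAMK higher for 14.1%.

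**Figure D1:**
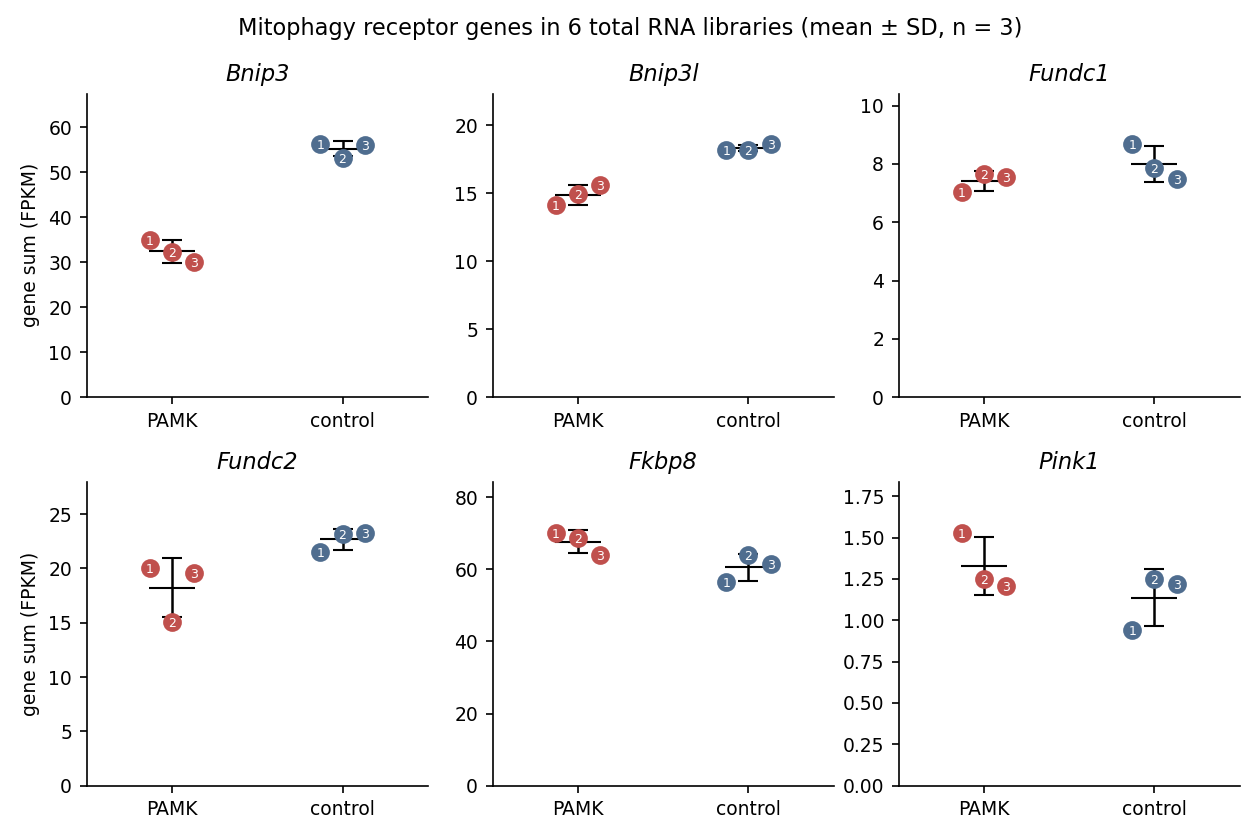
Gene level in FPKM (vertical axes, each from 0) of the 6 genes in PAMK (red, left) and control (blue, right) total RNA libraries. Each numbered point is 1 library, and the bars give the mean ± SD (n = 3). Bnip3 stands at 30.0 to 35.0 FPKM in PAMK and 53.3 to 56.3 FPKM in control libraries, while Fundc1 and Pink1 overlap between the groups.

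Bnip3l encodes NIX, the closest relative of BNIP3, best known for clearing mitochondria from maturing red blood cells. It lies at chr14:66985239-67008877 on the minus strand. Bnip3l had 14.1, 14.9 and 15.6 FPKM in PAMK libraries, against 18.2, 18.2 and 18.6 FPKM in control libraries. All 3 PAMK libraries lay below all 3 controls, as for Bnip3, but the gap was smaller. The means were 14.9 ± 0.754 FPKM in PAMK and 18.4 ± 0.255 FPKM in control (SD, n = 3 each), a ratio of 0.810. Its log2 fold change of -0.29 ± 0.0589 (SE) did not pass the test over all genes (limma adjusted p 0.284).

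Because both genes were measured in the same libraries, a factor applied to a whole library does not change their ratio. Quantile normalization is not such a factor and can change it. Bnip3 stood at 2.48, 2.18 and 1.92 times Bnip3l in PAMK libraries, against 3.09, 2.93 and 3.02 times in control libraries. The ratio was lower in every PAMK library than in every control library. The log2 ratio averaged 1.12 ± 0.185 in PAMK and 1.59 ± 0.0393 in control (SD, n = 3 each), a difference of -0.47 that contains the Bnip3 contrast and is given without a test.

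Fundc1 encodes an outer-membrane receptor whose binding to LC3 is switched by phosphorylation, and it lies at chrX:17556564-17572325 on the minus strand. Fundc1 had 7.03, 7.65 and 7.56 FPKM in PAMK libraries, against 8.68, 7.85 and 7.47 FPKM in control libraries. The groups overlapped, since control library 3 lay below PAMK libraries 2 and 3. The log2 fold change was -0.10 ± 0.0845 (SE, limma adjusted p 0.721), and -0.04 without control library 1.

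Fundc2, at chrX:75382399-75396459 on the plus strand, encodes a protein of the same FUN14 family that also sits in the outer membrane. Fundc2 had 20.0, 15.1 and 19.6 FPKM in PAMK libraries, against 21.5, 23.2 and 23.3 FPKM in control libraries. The groups did not overlap, but PAMK library 2 stood well below the other PAMK libraries. The means were 18.3 ± 2.72 FPKM in PAMK and 22.7 ± 1.02 FPKM in control (SD, n = 3 each). Its log2 fold change of -0.31 ± 0.120 (SE) did not pass the test (limma adjusted p 0.498), and it was -0.18 without PAMK library 2. Fundc2 stood at 2.48 ± 0.448 times Fundc1 in PAMK and 2.85 ± 0.334 times in control libraries, and these ratios overlapped.

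Fkbp8 encodes a membrane-anchored relative of the FK506-binding proteins that binds LC3A and also holds BCL2 at mitochondria. It lies at chr8:70527724-70535328 on the plus strand. Fkbp8 had 70.2, 68.7 and 64.1 FPKM in PAMK libraries, against 56.4, 63.9 and 61.4 FPKM in control libraries. It was the only one of the 6 genes whose PAMK libraries all lay above the controls, and the nearest libraries, at 64.1 FPKM in PAMK and 63.9 FPKM in control, almost met. The means were 67.6 ± 3.21 FPKM in PAMK and 60.5 ± 3.81 FPKM in control (SD, n = 3 each). The log2 fold change of 0.16 ± 0.0659 (SE) did not pass the test (limma adjusted p 0.514), and it was 0.04 when library medians were made equal and 0.08 with noncoding forms added.

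Pink1, at chr4:138313409-138326307 on the minus strand, encodes the kinase that starts ubiquitin-driven mitophagy. Pink1 had 1.53, 1.25 and 1.21 FPKM in PAMK libraries, against 0.942, 1.25 and 1.22 FPKM in control libraries. The groups overlapped, and the lowest value was control library 1. The log2 fold change was 0.12 ± 0.115 (SE, limma adjusted p 0.737), and 0.05 without control library 1.

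Of the 5 genes chosen by function, 0 passed the limma test over all genes, and 2 (Bnip3l and Fundc2) had an unadjusted p under 0.05, against 10.0% of all genes. Groups did not overlap with PAMK lower for these 2 and for Bnip3, which was chosen for it, against 5.40% of all genes. Fkbp8 alone of the 6 had them apart with PAMK higher, against 14.1% of all genes. Since the 5 genes were chosen with earlier results of these data known, these counts are a description. Scaling moved sizes but not directions. With library medians made equal the log2 fold changes were -0.87 for Bnip3, -0.40 for Bnip3l, -0.42 for Fundc2, -0.20 for Fundc1 and 0.06 for Pink1. With quantile normalization they were -0.78 for Bnip3, -0.35 for Bnip3l, -0.36 for Fundc2, -0.17 for Fundc1, 0.13 for Fkbp8 and 0.02 for Pink1. The median over all tested genes was 0.057 as deposited, -0.032 with equal medians and -0.024 with quantile normalization.

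**Figure D2:**
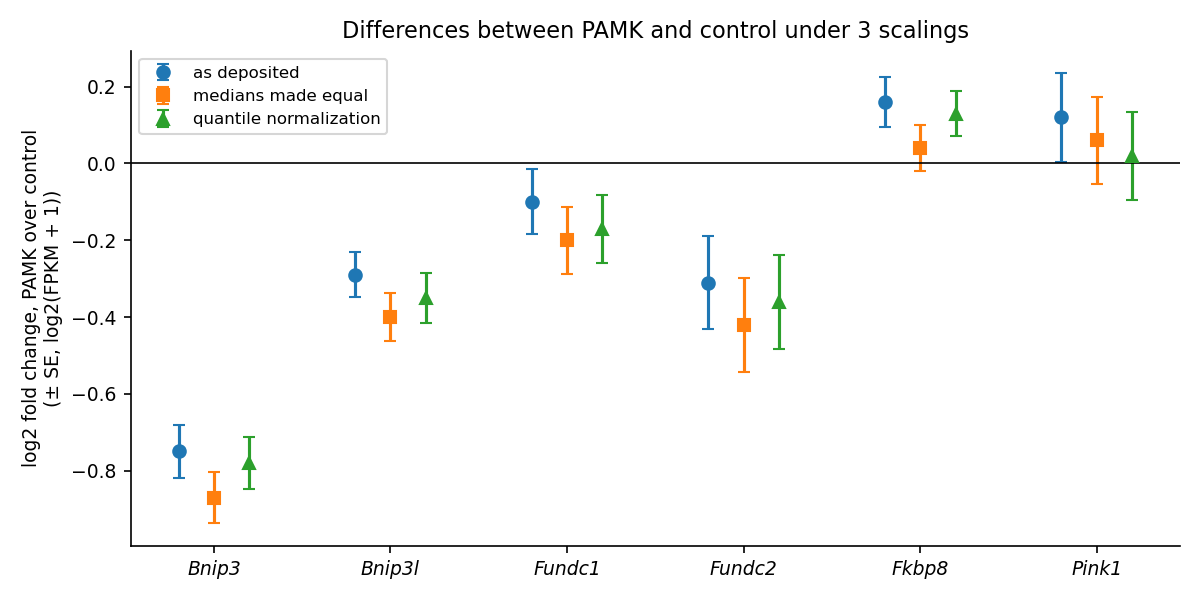
Log2 fold change of PAMK over control (vertical axis, on log2(FPKM + 1)) of each of the 6 genes under 3 scalings of the libraries, with bars of ± SE. Bnip3 lies between -0.87 and -0.75 under all 3, Bnip3l and Fundc2 between -0.42 and -0.29, and Fkbp8 between 0.04 and 0.16.

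The order of the genes by level was Fkbp8, Bnip3, Fundc2, Bnip3l, Fundc1 and Pink1 in every library. Fkbp8 lay above 96.2% of the tested genes by mean level, Bnip3 above 94.0%, Fundc2 above 86.5%, Bnip3l above 83.3%, Fundc1 above 66.9% and Pink1 above 15.7%. In control libraries Fkbp8 and Bnip3 were close: control library 1 had 56.4 FPKM of Fkbp8 and 56.3 FPKM of Bnip3. In PAMK libraries they were far apart, since Bnip3 stood at 0.498, 0.471 and 0.468 times Fkbp8, against 0.999, 0.834 and 0.916 times in control libraries. Fundc2 and Bnip3l were neighbours whose ranges overlapped in PAMK libraries (15.1 to 20.0 and 14.1 to 15.6 FPKM) and not in control libraries (21.5 to 23.3 and 18.2 to 18.6 FPKM).

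The 6 genes together summed to 142 ± 5.26 FPKM in PAMK and 166 ± 3.41 FPKM in control libraries (SD, n = 3 each). Bnip3 made up 23.6%, 23.1% and 21.7% of that sum in PAMK libraries, against 34.8%, 31.8% and 33.4% in control libraries. Fkbp8 made up 47.7 ± 1.34% of it in PAMK and 36.5 ± 1.65% in control libraries. These shares restate the levels above on another scale, and neither gene's groups overlapped on it.

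Single transcripts were then examined. The 6 genes had 16 coding transcripts, of which 9 passed the filter and 1, a Pink1 form (ENSMUST00000105817), was listed at 0 in all 6 libraries. Of 14728 coding transcripts tested, 30 were called (0.204%). Of the 8 tested forms outside Bnip3, 0 passed the limma test and 2 had an unadjusted p under 0.05, against 7.48% of all tested transcripts. Outside Bnip3, groups did not overlap for 2 of the 8 tested forms with PAMK lower, against 5.12% of all tested transcripts, and for 1 with PAMK higher, against 10.8%.

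Nearly all Bnip3 RNA was 1 transcript, ENSMUST00000106112, which made up 98.3 to 99.6% of the gene sum in PAMK and 98.9 to 99.7% in control libraries. That transcript had 34.7, 31.8 and 29.8 FPKM in PAMK libraries, against 55.7, 53.1 and 55.7 FPKM in control libraries. It was lower in each PAMK library, as the gene sum was, with a log2 fold change of -0.76 ± 0.0725 (SE). The other coding form, ENSMUST00000130500, had 0.236, 0.561 and 0.122 FPKM in PAMK libraries, against 0.626, 0.163 and 0.504 FPKM in control libraries, and overlapped. Its share of Bnip3 was at most 1.73% in PAMK and 1.11% in control libraries, so the main form made up nearly all of the gene in both groups.

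Bnip3l, Fundc2 and Fundc1 were likewise each carried by 1 coding form. ENSMUST00000022634 made up at least 99.9% of Bnip3l in PAMK libraries and 100% in control libraries, with a log2 fold change of -0.29 (limma adjusted p 0.446). ENSMUST00000033541 was all of Fundc2, with a log2 fold change of -0.31 (limma adjusted p 0.664). For Fundc1, ENSMUST00000026016 made up 93.7 to 95.3% of the sum in PAMK and 95.5 to 98.2% in control libraries. A minor Fundc1 form, ENSMUST00000176638, had 0.156 and 0.116 FPKM in PAMK libraries 1 and 2 and was listed at 0 in PAMK library 3 and in all 3 control libraries.

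Fkbp8 and Pink1 were split over several forms. The main Fkbp8 form, ENSMUST00000075491, had 60.1, 58.6 and 53.5 FPKM in PAMK libraries, against 48.6, 46.9 and 53.4 FPKM in control libraries. The groups were separated only by the last digit of PAMK library 3 and control library 3. Its log2 fold change was 0.21 ± 0.0768 (SE, limma adjusted p 0.645). The second form, ENSMUST00000119353, had 8.39, 8.63 and 8.45 FPKM in PAMK libraries, against 6.45, 14.5 and 6.13 FPKM in control libraries, where library 2 stood apart. In that control library the form took 22.8% of Fkbp8, above its share in any other library. A shorter form, ENSMUST00000119425, had a log2 fold change of -0.03 (limma adjusted p 0.987). For Pink1, the form ENSMUST00000030536 had 0.568, 0.624 and 0.608 FPKM in PAMK libraries, against 0.937, 0.509 and 0.458 FPKM in control libraries. The shorter form ENSMUST00000105816 had 0.958, 0.622 and 0.601 FPKM in PAMK libraries, against 0.00486, 0.740 and 0.766 FPKM in control libraries. Control library 1 therefore held 99.5% of its Pink1 in the first form, unlike the other 5 libraries, and neither form passed the test (limma adjusted p 0.987 and 0.834).

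**Figure D3:**
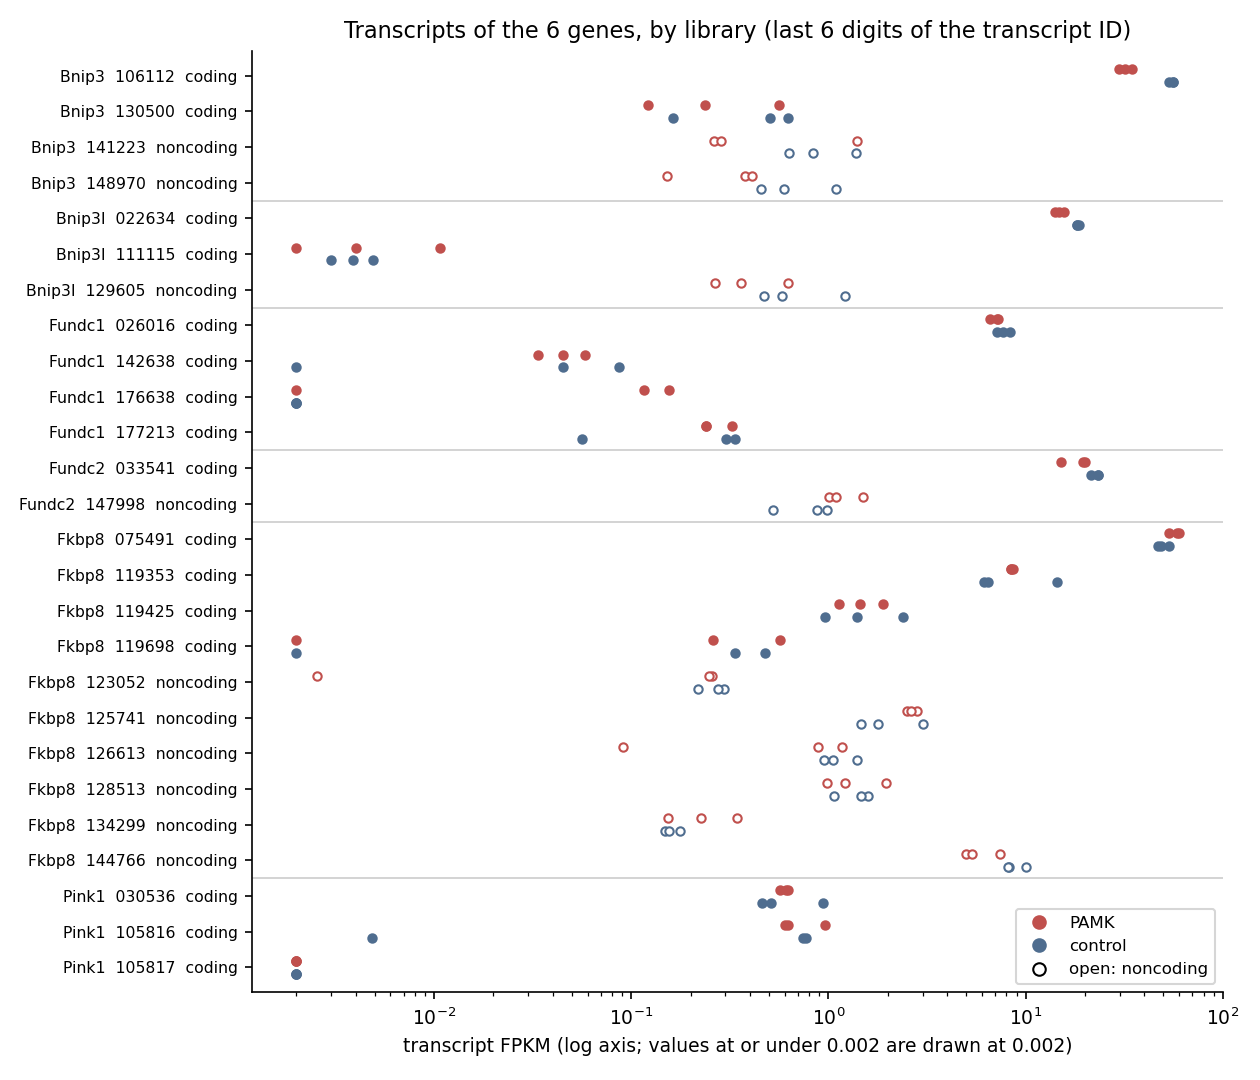
Levels in FPKM (log axis) of all coding (filled) and noncoding (open) transcripts of the 6 genes in PAMK (red) and control (blue) libraries, with 1 point per library and the lowest values drawn at the left edge. The main Bnip3 transcript lies at 29.8 to 34.7 FPKM in PAMK and 53.1 to 55.7 FPKM in control libraries, and each noncoding transcript lies at or below 10.1 FPKM.

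The same RNA libraries also gave 10 noncoding transcripts under the names of these genes, and all 10 passed the filter of a mean of 0.1 FPKM. Of 23670 noncoding transcripts tested on log2(FPKM + 0.1), 9 were called (0.0380%). Of the 8 under the names of the other genes, 0 passed the limma test and 1 had an unadjusted p under 0.05, against 5.76% of all tested. Among these 8, groups did not overlap for 1 with PAMK lower, against 4.23% of all tested, and for 1 with PAMK higher, against 7.06%.

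Both noncoding Bnip3 transcripts were on average lower in PAMK. ENSMUST00000148970 had 0.378, 0.151 and 0.409 FPKM in PAMK libraries, against 1.09, 0.454 and 0.598 FPKM in control libraries. The groups did not overlap, but the nearest libraries almost met, and the log2 fold change was -0.97 ± 0.437 (SE). ENSMUST00000141223 had 1.39, 0.262 and 0.284 FPKM in PAMK libraries, against 0.837, 1.38 and 0.630 FPKM in control libraries, with a log2 fold change of -0.76 ± 0.616 (SE). PAMK library 1 held its highest value, so the groups overlapped, and the value ran from -1.43 without that library to -0.41 without PAMK library 2. With a pseudocount of 1 the log2 fold changes were -0.37 for the first and -0.29 for ENSMUST00000141223.

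The noncoding Fkbp8 transcript ENSMUST00000144766 lay on the other side from the main coding form. It had 4.96, 5.33 and 7.39 FPKM in PAMK libraries, against 10.1, 8.28 and 8.14 FPKM in control libraries, and the groups did not overlap. Its log2 fold change of -0.59 ± 0.212 (SE) did not pass the test (limma adjusted p 0.858). The noncoding Fundc2 transcript ENSMUST00000147998 also lay opposite to its coding form, with 1.01, 1.49 and 1.09 FPKM in PAMK libraries and 0.878, 0.525 and 0.979 FPKM in control libraries. Its log2 fold change was 0.56 ± 0.302 (SE, limma adjusted p 0.890). For Bnip3l, ENSMUST00000129605 had 0.267, 0.360 and 0.620 FPKM in PAMK libraries, against 1.22, 0.469 and 0.580 FPKM in control libraries, which overlapped. The noncoding Fkbp8 transcript ENSMUST00000128513 had a log2 fold change of -0.02 (limma adjusted p 0.998). These transcripts share sequence with the coding forms, so how reads were divided between them is uncertain. The strand setting of the counting was not given in the sources used here, so reads from genes that overlap on the opposite strand cannot be told apart either.

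Genes around the receptors were taken as 10 lists, with 126 different genes, of which 114 were tested. In these lists 0 genes passed the limma test in either direction, and 13 of 114 (11.4%) had an unadjusted p under 0.05, near the 10.0% of all genes. Groups did not overlap for 8 of them (7.02%) with PAMK lower and 17 (14.9%) with PAMK higher, near the 5.40% and 14.1% of all genes. Over all tested genes the median log2 fold change was 0.06, with 5913 genes above 0 and 3868 below. With equal library medians, most list medians that were above 0 as deposited lay below it. They were -0.09 for other HIF targets, -0.04 for cargo adaptors, -0.05 for receptor enzymes and turnover and -0.06 for BCL2 partners. For fission and fusion the median was then -0.07 and for mitochondrial mass -0.03, while that of the PINK1 and ubiquitin route stayed above 0, at 0.02.

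**Figure D4:**
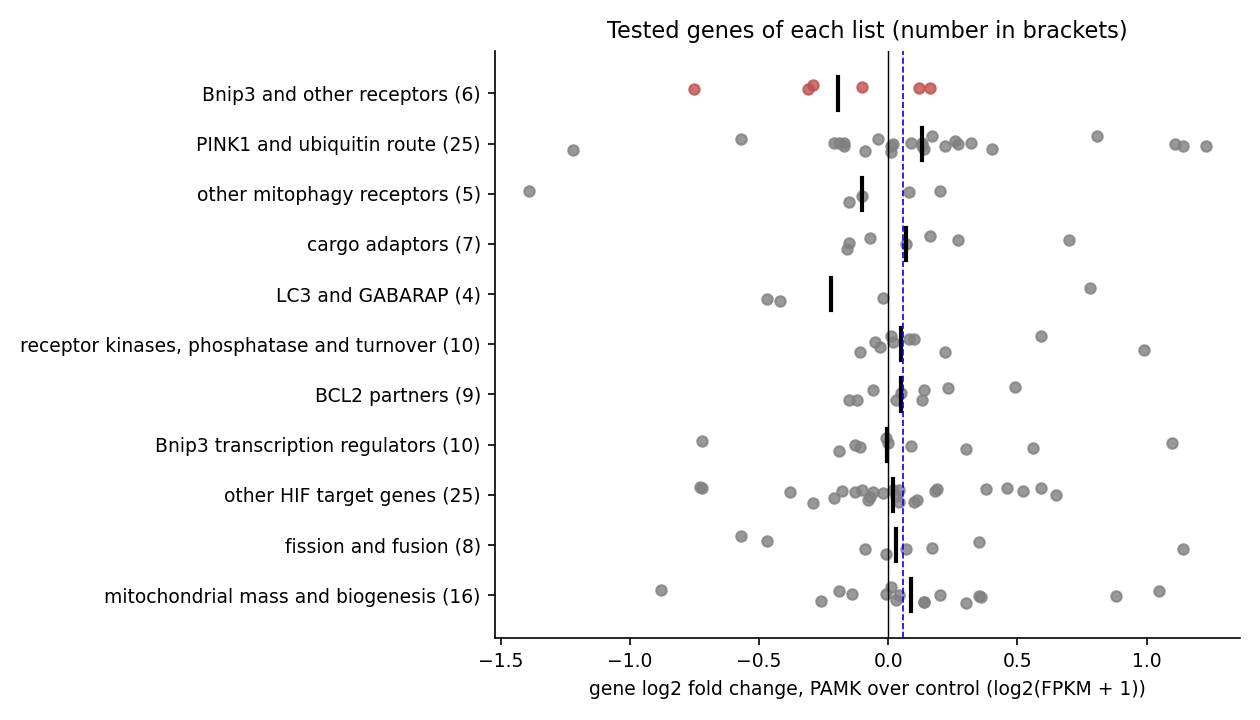
Log2 fold change of PAMK over control (horizontal axis, on log2(FPKM + 1)) of each tested gene of the 10 lists (grey) and of the 6 genes (red, labelled as receptors), with the number tested in brackets. Black bars are list medians and the dashed blue line is the median of all tested genes, 0.057; Bnip3, at -0.75, is the lowest of the red points.

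In the PINK1 and ubiquitin route 25 genes were tested, with a median log2 fold change of 0.13, 17 above 0 and 8 below. The median was 0.02 with equal library medians, with 13 above 0 and 12 below, and 0.04 with quantile normalization, with 14 above 0 and 11 below. Rhot2, a mitochondrial transport GTPase degraded in this route, had 8.75, 8.72 and 8.76 FPKM in PAMK libraries, against 7.21, 7.57 and 7.40 FPKM in control libraries. The groups did not overlap and the PAMK libraries were nearly equal (log2 fold change 0.22 ± 0.0632 SE, limma adjusted p 0.392). The log2 fold change of Rhot2 was 0.11 with equal library medians and 0.14 with quantile normalization. Mfn1, a fusion GTPase also marked in it, had 7.97, 6.64 and 4.71 FPKM in PAMK libraries, against 4.68, 1.39 and 1.69 FPKM in control libraries. PAMK library 3 and control library 1 almost met (log2 fold change 1.14 ± 0.388 SE, limma adjusted p 0.447). Fbxo7, an F-box protein that acts with PINK1, had a log2 fold change of 0.81 (limma adjusted p 0.512), which was 0.46 without control library 3 and 0.20 with noncoding forms added.

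Among the other receptors, single libraries stood far from the rest of their group. Phb2, an inner-membrane receptor, had 0.151, 126 and 100 FPKM in PAMK libraries, against 33.2, 83.9 and 91.0 FPKM in control libraries. Bcl2l13, an outer-membrane receptor, had 11.8, 1.78 and 2.03 FPKM in PAMK libraries, against 10.2, 2.47 and 2.79 FPKM in control libraries, so library 1 of each group stood far above the rest. Nipsnap1, a mitochondrial tag for autophagy adaptors, had a log2 fold change of -0.10 (limma adjusted p 0.847) and Ambra1, an activator of autophagy, 0.20 (limma adjusted p 0.575). With equal library medians the values were -0.21 for Nipsnap1 and 0.09 for Ambra1. Of these 5 receptors, 2 were above 0 and 3 below, with a median of -0.10 that ran from -0.15 to 0.18 with each library left out. The 7 tested of 8 cargo adaptor genes had a median of 0.07, with 4 above 0 and 3 below. Tax1bp1, an adaptor that binds ubiquitin and LC3, had 9.43, 14.2 and 10.8 FPKM in PAMK libraries, against 5.03, 7.58 and 7.36 FPKM in control libraries. Its groups did not overlap, and the log2 fold change of 0.70 ± 0.208 (SE) did not pass the test (limma adjusted p 0.396). Sqstm1, the adaptor p62, had 39.5, 38.9 and 35.2 FPKM in PAMK libraries, against 33.9, 36.2 and 37.7 FPKM in control libraries, which overlapped (limma adjusted p 0.738). Optn, the adaptor optineurin, had a log2 fold change of -0.07 (limma adjusted p 0.862) and Calcoco1 0.16 (limma adjusted p 0.655). The value of Calcoco1 was 0.02 with noncoding forms added.

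On the autophagosome side, 4 of 5 LC3 and GABARAP genes were tested, with 1 above 0, 3 below and a median of -0.22. Map1lc3b, the LC3 form most used as an autophagosome marker, had 17.3, 23.1 and 13.4 FPKM in PAMK libraries, against 19.0, 6.96 and 6.92 FPKM in control libraries. Control library 1 lay among the PAMK libraries (log2 fold change 0.78 ± 0.432 SE, limma adjusted p 0.589). Gabarapl1 had 6.51, 6.40 and 18.3 FPKM in PAMK libraries, against 16.4, 6.72 and 18.2 FPKM in control libraries, which overlapped. Map1lc3a, the LC3 form that FKBP8 binds, had a log2 fold change of -0.47 (limma adjusted p 0.714). Gabarap, a gene expected in nearly all cells, was listed at 0.0139 to 0.209 FPKM in PAMK and 0.0484 to 0.107 FPKM in control libraries and was not tested. Of 12 genes for enzymes and partners that switch or degrade receptors, 10 were tested, with 7 above 0, 3 below and a median of 0.05, but 3 above 0 and 7 below with equal library medians, and 5 each with quantile normalization. Pptc7, a mitochondrial phosphatase that promotes the turnover of BNIP3 and NIX, had 16.2, 14.5 and 15.9 FPKM in PAMK libraries, against 16.9, 16.7 and 16.9 FPKM in control libraries (limma adjusted p 0.589). Marchf5, a ligase that marks FUNDC1 for degradation, had 7.00, 7.68 and 6.77 FPKM in PAMK libraries, against 5.96, 5.35 and 6.66 FPKM in control libraries (limma adjusted p 0.540). The groups of both genes were separated by small gaps, with Pptc7 lower and Marchf5 higher in PAMK. With equal library medians the log2 fold change of Marchf5 went from 0.22 to 0.12, and that of Pptc7 from -0.11 to -0.23. Pgam5, the phosphatase that activates FUNDC1, had a log2 fold change of 0.08 (limma adjusted p 0.856), Ulk1, a kinase of autophagy initiation, 0.01 (limma adjusted p 0.985), and Csnk2b, the regulatory subunit of casein kinase 2, 0.10 (limma adjusted p 0.605).

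BNIP3 and NIX bind BCL2 proteins, and all 9 genes of that list were tested, with 6 above 0, 3 below and a median of 0.05. With equal library medians 4 were above 0 and 5 below, and with quantile normalization 5 above and 4 below. Bak1, a pore-forming protein of the outer membrane, had 19.9, 20.9 and 17.3 FPKM in PAMK libraries, against 12.9, 14.1 and 13.4 FPKM in control libraries. Every PAMK library lay above every control library, and the log2 fold change of 0.49 ± 0.0884 (SE) did not pass the test over all genes (limma adjusted p 0.268). Bid, a BH3-only activator, had a log2 fold change of 0.13 (limma adjusted p 0.465), and Bcl2, a binding partner of BNIP3, -0.12 (limma adjusted p 0.705). With equal library medians the values were 0.02 for Bid and -0.21 for Bcl2. Mcl1, another BCL2 relative that protects cells from death, had a log2 fold change of -0.06 (limma adjusted p 0.881).

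Of 12 genes for regulators of Bnip3 transcription, 10 were tested, with 4 above 0, 6 below and a median of -0.01. The median was -0.10 with equal library medians and -0.09 with quantile normalization, again with 4 above 0 and 6 below. Hif1a, the oxygen-regulated subunit of HIF, had 39.3, 40.4 and 42.5 FPKM in PAMK libraries, against 44.0, 43.1 and 44.7 FPKM in control libraries. The groups did not overlap, and the log2 fold change of -0.11 ± 0.0476 (SE) did not pass the test (limma adjusted p 0.531). Egln2, a prolyl hydroxylase that marks HIF for degradation, had 10.1, 7.82 and 9.43 FPKM in PAMK libraries, against 5.45, 5.89 and 6.17 FPKM in control libraries. Each PAMK library was higher (log2 fold change 0.56 ± 0.113 SE, limma adjusted p 0.282). Foxo3, a factor known to induce Bnip3 in muscle, had 5.88, 5.27 and 4.77 FPKM in PAMK libraries, against 1.23, 4.66 and 9.57 FPKM in control libraries, which held both the lowest and the highest value. Vhl, which recognises hydroxylated HIF, had a log2 fold change of -0.19 (limma adjusted p 0.539). With equal library medians the values were -0.23 for Hif1a, -0.30 for Vhl and 0.45 for Egln2.

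Other HIF target genes lay on both sides of 0. Of 30 listed, 25 were tested, with 13 above 0, 12 below and a median of 0.02. The median was -0.09 with equal library medians, with 8 above 0 and 17 below, and -0.05 with quantile normalization, with 10 above 0 and 15 below, so its sign depends on the scaling. The HIF motifs shown above in the Bnip3 window were common among these genes: 81.4% of the 43 windows of 27 listed targets held at least 1 of them, against 63.9% of windows of tested genes. Slc2a1, the glucose transporter GLUT1, had 39.9, 35.0 and 40.0 FPKM in PAMK libraries, against 46.2, 44.1 and 50.8 FPKM in control libraries. P4ha2, a collagen prolyl hydroxylase subunit, had 4.81, 4.46 and 2.50 FPKM in PAMK libraries, against 6.38, 8.20 and 6.38 FPKM in control libraries. The PAMK libraries of both lay below all controls, with log2 fold changes of -0.29 ± 0.0831 (limma adjusted p 0.387) and -0.73 ± 0.233 (SE, limma adjusted p 0.438), and that of P4ha2 was -0.39 with noncoding forms added. Eno1, a glycolytic enzyme, had a log2 fold change of -0.13 (limma adjusted p 0.496). Ldha, lactate dehydrogenase A, had 534, 542 and 674 FPKM in PAMK libraries, against 554, 620 and 596 FPKM in control libraries. Vegfa, the vascular growth factor, and Pdk1, which shuts pyruvate out of mitochondria, had log2 fold changes of 0.46 (limma adjusted p 0.774) and 0.65 (limma adjusted p 0.648), with groups that overlapped as they did for Ldha.

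Genes of mitochondrial fission and fusion and of mitochondrial mass and biogenesis formed 2 further lists. Only their RNA was measured, and mitochondrial shape and mass were not. The 8 fission and fusion genes had 4 above 0 and 4 below, with a median of 0.03. Fis1, an outer-membrane fission adaptor, had 46.3, 47.7 and 43.2 FPKM in PAMK libraries, against 39.0, 33.1 and 34.9 FPKM in control libraries. Each PAMK library was higher, and the log2 fold change of 0.35 ± 0.0783 (SE) did not pass the test (limma adjusted p 0.305). It was 0.23 with equal library medians. Opa1, an inner-membrane fusion GTPase, had a log2 fold change of -0.57 with overlapping groups (limma adjusted p 0.714), and -0.15 with noncoding forms added. Of 17 genes of mitochondrial mass and biogenesis, 16 were tested, with 11 above 0, 5 below and a median of 0.09. With equal library medians, and likewise with quantile normalization, 8 were above 0 and 8 below. Polg, the mitochondrial DNA polymerase, had a log2 fold change of 0.88 (limma adjusted p 0.438) that was -0.20 with noncoding forms added. For Nrf1, a regulator of respiratory genes, it was 0.36 (limma adjusted p 0.490), and 0.23 with noncoding forms added. For Atp5a1, an ATP synthase subunit, it was -0.26 (limma adjusted p 0.652), and -0.02 with noncoding forms added.

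The genes whose levels were most like those of Bnip3 over the 6 total RNA libraries were sought among 2614 tested genes with a mean of at least 10 FPKM, by Pearson's r of log2(FPKM + 1). Since the libraries fall into the PAMK and control groups, such an r mainly ranks genes by how cleanly they separate these groups, and it is a description. The 5 highest were Cisd2 (0.9889), Wdr83os (0.9886), Nfe2l1 (0.9785), Tfrc (0.9778) and Gtf3c3 (0.9776). Cisd2, an iron-sulfur protein of the mitochondrial and reticulum membranes, had 15.4, 15.6 and 14.6 FPKM in PAMK libraries, against 19.9, 20.1 and 19.9 FPKM in control libraries. Tfrc, the transferrin receptor, had 173, 168 and 163 FPKM in PAMK libraries, against 188, 191 and 187 FPKM in control libraries. Nfe2l1, a transcription factor of the proteasome genes, had 2.13, 2.03 and 2.21 FPKM in PAMK libraries, against 18.3, 22.3 and 21.9 FPKM in control libraries, a ratio of 0.102 between the group means. Among the genes chosen by function, r with Bnip3 was 0.91 for Bnip3l, 0.76 for Fundc2, 0.54 for Fundc1, -0.49 for Pink1 and -0.73 for Fkbp8.

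Small RNA libraries were made separately and were not used in choosing any of these genes. MiR-210 is a microRNA induced by HIF, miR-27a and miR-27b are reported to act on Pink1, and miR-145a is the mouse form of a microRNA reported to act on BNIP3 in other settings. A further microRNA, miR-137-3p, was also sought and was not found under that name among the deposited small RNAs. The mature sequences, credited to RefSeq on build GRCm38.p6, are shown with the seed, bases 2 to 8, in capitals because miR-27a-3p and miR-27b-3p share it while the arms of miR-210 do not.
miR-210-3p: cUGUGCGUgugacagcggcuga
miR-210-5p: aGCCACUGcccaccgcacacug
miR-27a-3p: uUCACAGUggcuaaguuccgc
miR-27b-3p: uUCACAGUggcuaaguucugc

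The filter of a mean of 10 normalized counts left 479 small RNAs, and 0 of them were called by limma on log2(count + 1) at an adjusted p of at most 0.05 (0%), and 75 (15.7%) had an unadjusted p under 0.05. PAMK library 1 stood apart: it correlated at 0.951 and 0.955 with the other PAMK libraries, which correlated at 0.986 with each other, and the control libraries correlated at 0.981 to 0.993. Without it, 134 of 479 were called (28.0%), so each value below is given with and without that library. Leaving out any other single library called 0. PAMK library 1 was singled out from these same values, and the fit without it has fewer PAMK libraries. The adjusted p-values without it therefore depend on that choice and are a description.

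MiR-210-3p had 10986.2, 7879.7 and 7685.9 normalized counts in PAMK libraries, against 10513.6, 11710.8 and 9959.6 in control libraries. The groups overlapped through PAMK library 1, which held the second highest value of all 6. The log2 fold change was -0.29 ± 0.157 (SE, limma adjusted p 0.357), and -0.46 without PAMK library 1 (limma adjusted p 0.00696). With equal library medians it was -0.16. MiR-210-5p, the other arm of the same hairpin, had 737, 693 and 644 normalized counts in PAMK libraries, against 898, 1083.6 and 1001.0 in control libraries. Here the groups did not overlap, as for 10.4% of small RNAs with PAMK lower and, likewise, 10.4% with PAMK higher. The log2 fold change was -0.52 ± 0.122 (SE, limma adjusted p 0.164), and -0.57 without PAMK library 1 (limma adjusted p 0.00696).

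MiR-27a-3p had 22433.2, 11093.6 and 11613.2 normalized counts in PAMK libraries, against 16965.8, 15476.5 and 16488.4 in control libraries. PAMK library 1 was the highest and the other PAMK libraries were the lowest. The log2 fold change was -0.19 with all libraries (limma adjusted p 0.677) and -0.52 without PAMK library 1 (limma adjusted p 0.00216). It was -0.01 without PAMK library 2, -0.05 without PAMK library 3 and -0.06 with equal library medians, so its size rests on which library is left out. MiR-27b-3p had the same arrangement of libraries, with log2 fold changes of -0.15 (limma adjusted p 0.557) and, without PAMK library 1, -0.28 (limma adjusted p 0.0355). For miR-27b-3p the value was -0.08 without PAMK library 2 or without PAMK library 3, and -0.02 with equal library medians. MiR-145a-5p had 21136.3, 29702.8 and 26710.7 normalized counts in PAMK libraries, against 16498.2, 14808.7 and 11590.3 in control libraries. All PAMK libraries lay above all controls, with a log2 fold change of 0.86 ± 0.173 (SE, limma adjusted p 0.164) and 0.99 without PAMK library 1 (limma adjusted p 0.00189).

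**Figure D5:**
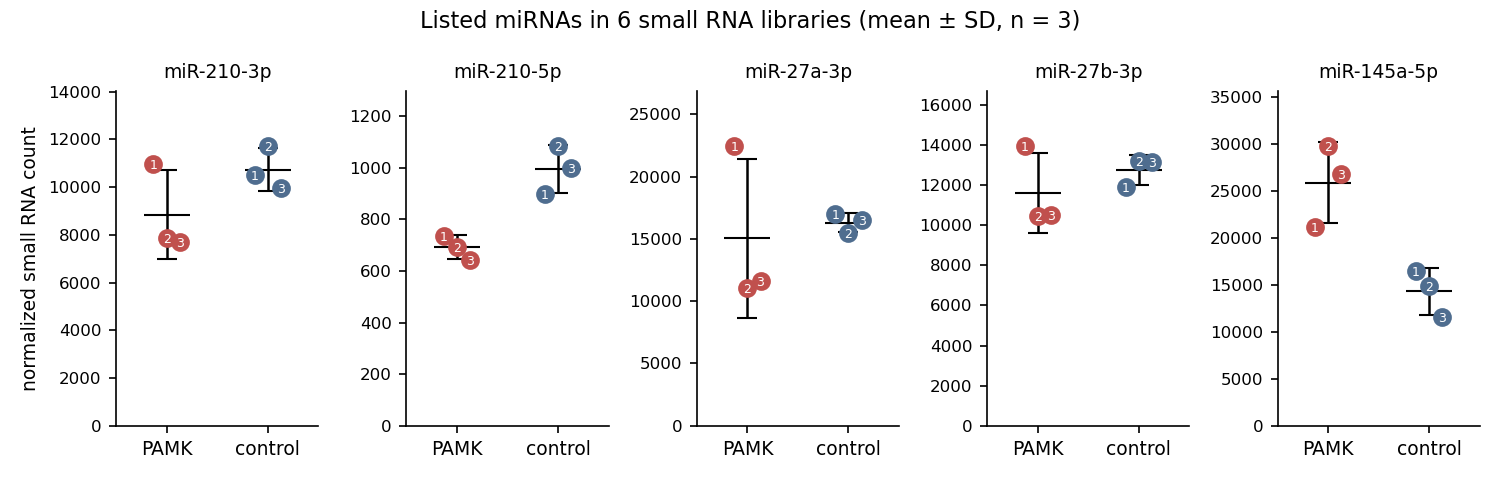
Normalized small RNA counts (vertical axes, each from 0) of 5 microRNAs in PAMK (red, left) and control (blue, right) small RNA libraries, with 1 numbered point per library and the mean ± SD (n = 3). PAMK library 1 lies away from the other PAMK libraries for miR-27a-3p, at 22433.2 against 11093.6 and 11613.2.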

How the data were processed

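Total RNA without ribosomal RNA and small RNA were sequenced from MTEC1 cells, per the labels' protocols. For total RNA, the tools listed in the submitters' processing notes are HISAT2 and StringTie, with cutadapt, FastQC and edgeR; the build and the strand setting were not given in the sources used here, and the deposited positions overlap those of RefSeq GRCm38.p6 for all 6 genes. The authors deposited FPKM per coding transcript and per noncoding transcript (the unit was inferred, above), with 1e-04 in place of 0, which was set back to 0. The authors also deposited a normalized signal per small RNA, headed as normalized counts by the file headers, with no method named in the sources used here. Coding transcripts were summed per gene name. limma 3.58.1 (R 4.3.3) with an intensity trend tested PAMK against control, two-sided, with pseudocounts of 1 (genes, transcripts, small RNA) and 0.1 (noncoding), and was tested on simulated data. The members and lists were chosen with earlier results of these data known. Named from each list were genes past the threshold, up to 3 with the smallest p, and a set of well-known genes. Alternatives covered pseudocounts, filters, scaling, noncoding forms, a replicate block and leaving out each library. Precision is set by 3 libraries a group, since depth is unknown. Small RNA values summed to 5122594 to 5886856 per library. One gene of the lists is not reported here.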

Additional observations from a re-analysis of the deposited data

How the results depend on the processing

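The 5 genes chosen by function kept their direction and their side of the threshold in 70 of 70 alternative values. The Bnip3 log2 fold change was -0.87 with equal library medians and ran from -0.81 to -0.70 with each library left out. The replicate numbers did not pair the libraries (correlations of deviations -0.023, 0.007 and 0.003 over genes), and the fit with the replicate block called 0 of 9781 genes (707 at an unadjusted p under 0.05), 0 coding transcripts (833), 0 noncoding transcripts (1175) and 0 small RNAs (62). Leaving out each library moved the calls to between 4 and 19 genes (4 without PAMK library 1, 19 without control library 1), 20 and 64 coding transcripts, 2 and 17 noncoding transcripts, and 0 and 134 small RNAs (134 without PAMK library 1). Without a filter 18 coding transcripts were called, and with a pseudocount of 1 there were 3 noncoding ones. Signs turned with equal medians for Sqstm1 (-0.04), Csnk2b (-0.02), Pgam5 (-0.03), Ulk1 (-0.08) and ENSMUST00000119353 (-0.08), with quantile normalization for Ulk1 (-0.09), and with noncoding forms added for Ulk1 (-0.05) and Polg (-0.20). With each library left out, values ran from -2.58 to 0.82 for Phb2, -0.24 to 0.05 for Nipsnap1, -0.32 to 0.06 for Ly75, -0.86 to 0.39 for Bcl2l13, -0.09 to 0.12 for Ulk1, -0.06 to 0.16 for Pgam5, -0.19 to 0.00 for Mcl1, -0.30 to 0.82 for Foxo3, -0.09 to 0.77 for Vegfa and -0.13 to 0.04 for Ldha. For transcripts they ran from -0.18 to 0.38 for ENSMUST00000119353, -0.21 to 0.19 for ENSMUST00000119425, -0.28 to 0.18 for ENSMUST00000128513, -0.10 to 0.11 for ENSMUST00000030536 and -0.03 to 0.38 for ENSMUST00000105816. List medians also turned, from -0.15 to 0.18 for the other receptors, -0.07 to 0.16 for cargo adaptors, -0.10 to 0.11 for fission and fusion and -0.07 to 0.01 for other HIF targets. The causes were not tested.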
